A study of Homo sapiens with 18 samples.

Results

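The genes described here are 10 members of the switch that lets a cell leave G1: the D cyclins CCND1, CCND2 and CCND3, the kinases CDK4 and CDK6 that they activate, the retinoblastoma gene RB1 that these kinases act on, the INK4 inhibitors CDKN2A, CDKN2B and CDKN2C, and MTAP, the gene next to CDKN2A on the short arm of chromosome 9. They were chosen by name, as the entries of the deposited table whose gene name is one of the 10, and transcripts were summed to genes. Values of 8 of the 10 genes, from 54 transcripts, were analysed among 32548 genes in all. CDKN2A and CDKN2B were not analysed here.

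RNA was measured in spheroidal aggregates of U87 mg, an established human glioblastoma line, and of DAOY, an established human line from a desmoplastic cerebellar medulloblastoma. Each line was held in a Matrigel channel and given a direct current electrical field (dcEF) of 250 V/m for 0 h (control), 2 h or 8 h, with 3 libraries for each of the 6 groups and 3 channels pooled into each library. No group carried an introduced allele or a drug. An effect of the field cannot be told apart from one of time in the channel, since channels kept as long without a field were not analysed here. Each line is a single established line, so a difference between the lines is not one between tumor types. Total estimated counts ran from 8341976 to 15610886 (median 10871201) in U87 mg and from 8491703 to 11508606 (median 9799889) in DAOY.

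D cyclins are made when growth signals reach the cell, bind CDK4 or CDK6 and allow the kinase to phosphorylate the RB1 protein, which then releases E2F transcription factors and with them the genes of DNA replication. INK4 proteins bind CDK4 and CDK6 and keep the D cyclins off. The CDKN2A and CDKN2B region is among the most often deleted in glioblastoma, frequently together with MTAP, the enzyme that returns methylthioadenosine to methionine, and CDK6, CCND1 and CCND2 are recurrently gained or overexpressed in brain tumors.

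Promoter sequences from RefSeq (GRCh38.p14, from 250 bases before to 50 bases after a start) were matched by symbol to 8 of the 10 genes, with 14 starts, and not to CCND1 or CCND2. The starts of CDKN2C, CDK6 and CDK4 are shown. CDKN2C and CDK6 were higher in DAOY and CDK4 was at a like level in both lines. Capitals mark the E-box CACGTG, a site that MYC and related factors can bind. It was searched on both strands, on which it reads the same, and was held by 7.26% of 35116 promoters.
CDKN2C, first start, chr1:50960495-50960794, plus strand: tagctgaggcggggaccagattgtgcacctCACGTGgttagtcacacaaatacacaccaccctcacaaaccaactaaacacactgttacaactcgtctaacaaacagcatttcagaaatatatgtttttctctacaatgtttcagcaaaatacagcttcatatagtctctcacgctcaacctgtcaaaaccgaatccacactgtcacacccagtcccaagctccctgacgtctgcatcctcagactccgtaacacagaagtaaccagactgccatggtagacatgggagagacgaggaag
CDKN2C, second start, chr1:50968456-50968755, plus strand: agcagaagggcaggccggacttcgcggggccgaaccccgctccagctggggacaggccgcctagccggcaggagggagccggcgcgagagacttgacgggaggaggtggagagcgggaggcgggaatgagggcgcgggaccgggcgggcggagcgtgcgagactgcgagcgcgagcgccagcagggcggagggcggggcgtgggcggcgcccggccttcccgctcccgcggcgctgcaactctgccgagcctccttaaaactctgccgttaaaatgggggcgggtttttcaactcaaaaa
CDKN2C, last start, chr1:50969995-50970294, plus strand: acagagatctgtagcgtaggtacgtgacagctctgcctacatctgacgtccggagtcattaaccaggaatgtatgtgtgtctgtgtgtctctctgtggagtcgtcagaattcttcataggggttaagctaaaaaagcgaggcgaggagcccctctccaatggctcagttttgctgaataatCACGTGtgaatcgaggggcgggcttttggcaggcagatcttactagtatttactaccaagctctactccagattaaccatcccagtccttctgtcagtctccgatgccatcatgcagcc
CDK6, upstream start, chr7:92836524-92836823, minus strand: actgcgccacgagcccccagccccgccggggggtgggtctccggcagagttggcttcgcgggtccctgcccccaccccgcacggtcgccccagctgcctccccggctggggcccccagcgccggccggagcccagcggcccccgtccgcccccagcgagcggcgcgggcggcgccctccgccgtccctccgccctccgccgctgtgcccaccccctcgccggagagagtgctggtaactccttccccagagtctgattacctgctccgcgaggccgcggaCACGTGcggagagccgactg
CDK6, downstream start, chr7:92833910-92834209, minus strand: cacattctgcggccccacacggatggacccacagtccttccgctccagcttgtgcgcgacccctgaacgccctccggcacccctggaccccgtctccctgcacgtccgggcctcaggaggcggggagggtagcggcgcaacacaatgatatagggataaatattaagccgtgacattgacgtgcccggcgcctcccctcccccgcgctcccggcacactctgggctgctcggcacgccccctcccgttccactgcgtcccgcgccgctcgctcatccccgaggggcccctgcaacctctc
CDK4, chr12:57752261-57752560, minus strand: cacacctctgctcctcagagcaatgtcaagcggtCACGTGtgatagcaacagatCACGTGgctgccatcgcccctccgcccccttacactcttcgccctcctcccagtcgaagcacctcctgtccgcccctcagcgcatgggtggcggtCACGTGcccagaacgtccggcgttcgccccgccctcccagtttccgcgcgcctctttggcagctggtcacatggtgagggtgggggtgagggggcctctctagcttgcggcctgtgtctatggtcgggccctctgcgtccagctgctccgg
The first and last windows of CDKN2C each held 1 E-box, at 220 and 69 bases before the start, and the second held none. CDK6 held 1 in the upstream window, beyond the start, and CDK4 held 3. The windows not shown, those of CDKN2A, CDKN2B, MTAP, RB1 and CCND3, held no E-box. The genes shown are therefore all those with an E-box, and their share is not that of the 14 windows. The E2F letters TTTCCCGC, TTTGGCGC, TTTCGCGC and TTTGCCGC, on either strand, were in 0 of the 14 windows and in 3.31% of all promoters. The AP-1 letters TGANTCA were in 1 of the 14, an internal start of RB1, and in 7.71% of all promoters. A match is a description of letters and not of a bound site.

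The first question was how the lines differed before the field. Of the 8 genes tested at 0 h, 5 passed the test, 4 higher in DAOY (CDKN2C, CCND2, CDK6 and MTAP) and 1 lower (CCND1). Counts were tested with edgeR (quasi-likelihood), p was adjusted by Benjamini-Hochberg over the 16481 genes that passed a filter on low counts, and a gene was called when the adjusted p was below 0.05 and the change was 2-fold or more in size. By the same rule, 41.2% of all genes tested were called, 23.4% higher and 17.8% lower in DAOY, so a count of 5 in 8 is near the background of these lines, and the size of the differences is what follows. The median log2 fold change of the 8 genes was 0.99, against 0.05 over all genes tested.

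CDKN2C, an INK4 inhibitor of CDK4 and CDK6 (chromosome 1, 50960745 to 50974633, plus strand; gene positions are those of GENCODE 29 on GRCh38), was listed at 0 counts in all 9 U87 mg libraries. In DAOY it had 132, 489 and 122 counts at 0 h, 232, 122 and 110 at 2 h, and 235, 150 and 111 at 8 h. The libraries of the lines did not overlap at any time. Its level in DAOY at 0 h was 22.4 ± 15.2 TPM (a level per transcript length, scaled to the same total in each library; SD, n = 3). With a floor of 3 counts set for each U87 mg library, CDKN2C was at least 87.5-fold higher in DAOY at 0 h (edgeR adjusted p = 1.17e-06). The 0 counts allow up to 3 counts in each library, for counting error only. The spread in DAOY came from replicate 1 at 0 h, with 39.9 TPM against 14.2 and 13.0 in the other libraries of that group.

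All 3 annotated transcripts of CDKN2C were at 0 in U87 mg and were found in every DAOY library. The starts named here are those printed above. The transcript that begins next to the second start (ENST00000396148, 3 exons) took a median of 54.5% of the gene's counts over the 9 DAOY libraries, with a range from 35.9% to 77.7%. That beginning nearest the last start (ENST00000371761, 2 exons) took 38.3%, and that from the first start (ENST00000262662, 4 exons) took 7.17%. ENST00000371761 begins at base 50969944, outside the printed window of the last start, which opens at base 50969995. These shares rest on exons that the transcripts have in common, and which Kallisto divides among them.

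CCND2, a D cyclin (chromosome 12, 4273772 to 4305350, plus strand), was near 0 in U87 mg and clearly present in DAOY. U87 mg had 2, 4 and 3 counts at 0 h and from 0 to 3 counts in the later libraries. DAOY had 309, 484 and 872 counts at 0 h, or 14.1 ± 8.38 TPM (SD, n = 3). Summed over the 0 h libraries and scaled to their depth, DAOY held 219 times as much, with an exact 95% counting interval from 115 to 479. The fitted log2 fold change was 7.73 (SE 0.60, edgeR adjusted p = 6.74e-09). The lines did not overlap at 0 h, 2 h or 8 h.

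CCND1, the D cyclin most widely expressed in tumors (chromosome 11, 69641087 to 69654474, plus strand), was the most abundant of the 8 genes in U87 mg and went the other way. It stood at 372, 326 and 357 TPM in U87 mg at 0 h and at 93.7, 28.0 and 79.2 TPM in DAOY. The lowest U87 mg library of all 9 had 326 TPM and the highest DAOY library 119 TPM. The log2 fold change of DAOY against U87 mg at 0 h was -2.40 (SE 0.37, edgeR adjusted p = 2.18e-05), or 5.28-fold lower in DAOY. Replicate 1 of DAOY at 0 h, high in CDKN2C, was the lowest of the 9 DAOY libraries in CCND1. Without it the log2 fold change was -2.03.

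CCND3, the remaining D cyclin (chromosome 6, 41934933 to 42050357, minus strand), differed by less than the test could show. It stood at 30.4, 45.4 and 41.0 TPM in U87 mg and at 24.8, 39.3 and 38.6 TPM in DAOY at 0 h, and the groups overlapped. The log2 fold change was -0.31 with a 95% interval from -0.72 to 0.09 (edgeR adjusted p = 0.167). Transcripts that begin at the distal start of the gene took a median of 16.8% of its counts in DAOY (from 5.25% to 27.5% over 9 libraries) and 6.22% in U87 mg (from 1.40% to 11.1%). Of these, ENST00000415497 was at 0 in all 9 U87 mg libraries and above 0 in 7 of the 9 from DAOY. These ranges overlapped, and the shares depend on how shared exons were divided.

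Together, the 3 D cyclins summed to 391 ± 17.1 TPM in U87 mg and to 115 ± 32.5 TPM in DAOY at 0 h (SD, n = 3). CCND1 made up 89.9% ± 2.36 of that sum in U87 mg and 55.3% ± 19.5 in DAOY. CCND2 made up 0.0568% ± 0.0696 and 12.4% ± 5.72, and CCND3 10.0% ± 2.35 and 32.3% ± 15.7. The CCND2 share in U87 mg rests on 2, 4 and 3 counts. U87 mg therefore carried nearly all of its D cyclin RNA as CCND1, and DAOY a mixture of all 3. The sum did not overlap between the lines at 0 h (exact two-sided permutation p = 0.1, the smallest that 3 against 3 can give).

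**Figure D1:**
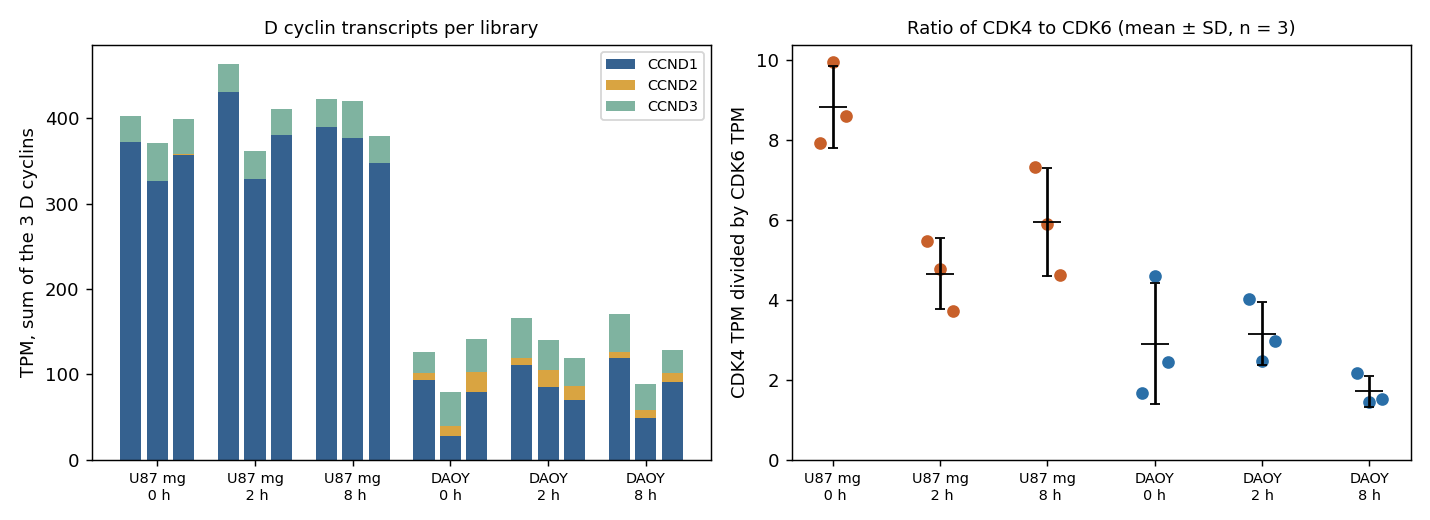
The left panel stacks the TPM of CCND1, CCND2 and CCND3 in each of the 18 libraries, and the right panel gives CDK4 TPM divided by CDK6 TPM in each library (points) with the mean and SD of each group (n = 3). All 9 U87 mg sums lie between 362 and 463 TPM and all 9 DAOY sums between 78.8 and 170.4 TPM. CCND2 is at most at 0.546 TPM, on 3 counts, in a U87 mg library.

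CDK6, a kinase partner of the D cyclins (chromosome 7, 92604921 to 92836594, minus strand), was higher in DAOY. It stood at 10.4, 11.8 and 12.3 TPM in U87 mg and at 48.8, 34.8 and 39.1 TPM in DAOY at 0 h. The log2 fold change was 1.81 (SE 0.18, edgeR adjusted p = 1.78e-07), or 3.52-fold higher in DAOY, and the highest of the 9 U87 mg libraries (18.1 TPM) lay below the lowest of DAOY (33.0 TPM). Transcript ENST00000265734, whose annotated start lies in the downstream window printed above, took 99.9% of the gene's counts in both lines. A transcript from the upstream start, ENST00000424848, had at most 2.76 counts in a library.

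CDK4, the other kinase (chromosome 12, 57747727 to 57756013, minus strand), overlapped between the lines, with 82.3, 117 and 105 TPM in U87 mg and 81.4, 159.8 and 95.7 TPM in DAOY at 0 h. Its log2 fold change was 0.07 with a 95% interval from -0.26 to 0.40 (edgeR adjusted p = 0.721), which excludes a 2-fold difference in either direction. Its sign turned without DAOY replicate 1 at 0 h (-0.10) or U87 mg replicate 2 at 0 h (-0.0032). CDK4 exceeded CDK6 8.83 ± 1.03 times in U87 mg and 2.90 ± 1.51 times in DAOY (SD, n = 3, exact two-sided permutation p = 0.1). The D cyclin sum over the sum of both kinases was 3.54 ± 0.743 in U87 mg and 0.807 ± 0.350 in DAOY, again without overlap (exact two-sided permutation p = 0.1). These are ratios of RNA and not of proteins.

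RB1, the pocket protein that CDK4 and CDK6 phosphorylate (chromosome 13, 48303726 to 48599436, plus strand), was present in both lines. It stood at 32.6, 29.1 and 30.9 TPM in U87 mg and at 50.9, 41.4 and 47.3 TPM in DAOY at 0 h, without overlap. The log2 fold change of 0.46 (SE 0.17, 95% interval from 0.11 to 0.81, edgeR adjusted p = 0.0234) was under the 2-fold threshold, so RB1 was not called. Its adjusted p was above 0.05 without DAOY replicate 0 at 0 h (0.194), without U87 mg replicate 1 (0.0882) or 2 (0.0730) at 0 h, and in a fit of only the 6 libraries compared (0.0615). The full-length transcript with 27 exons, ENST00000267163, took 98.9% of its counts in U87 mg and 97.8% in DAOY.

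MTAP (chromosome 9, 21802543 to 21937651, plus strand) was very low in both lines. U87 mg had 10.1, 2.0 and 4.3 estimated counts and DAOY 13.5, 14.7 and 12.1 at 0 h, or 0.123 ± 0.124 and 0.359 ± 0.117 TPM (SD, n = 3). The log2 fold change was 1.53 (SE 0.63, edgeR adjusted p = 0.0445), just past the threshold. The call was lost without DAOY replicate 0, 1 or 2 at 0 h (adjusted p = 0.102, 0.0632 and 0.0677) and without U87 mg replicate 1 or 2 at 0 h (0.168 and 0.179), and without U87 mg replicate 0 the log2 fold change was 2.53. DESeq2 gave 0.0557. Over all 9 libraries the lines overlapped.

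**Figure D2:**
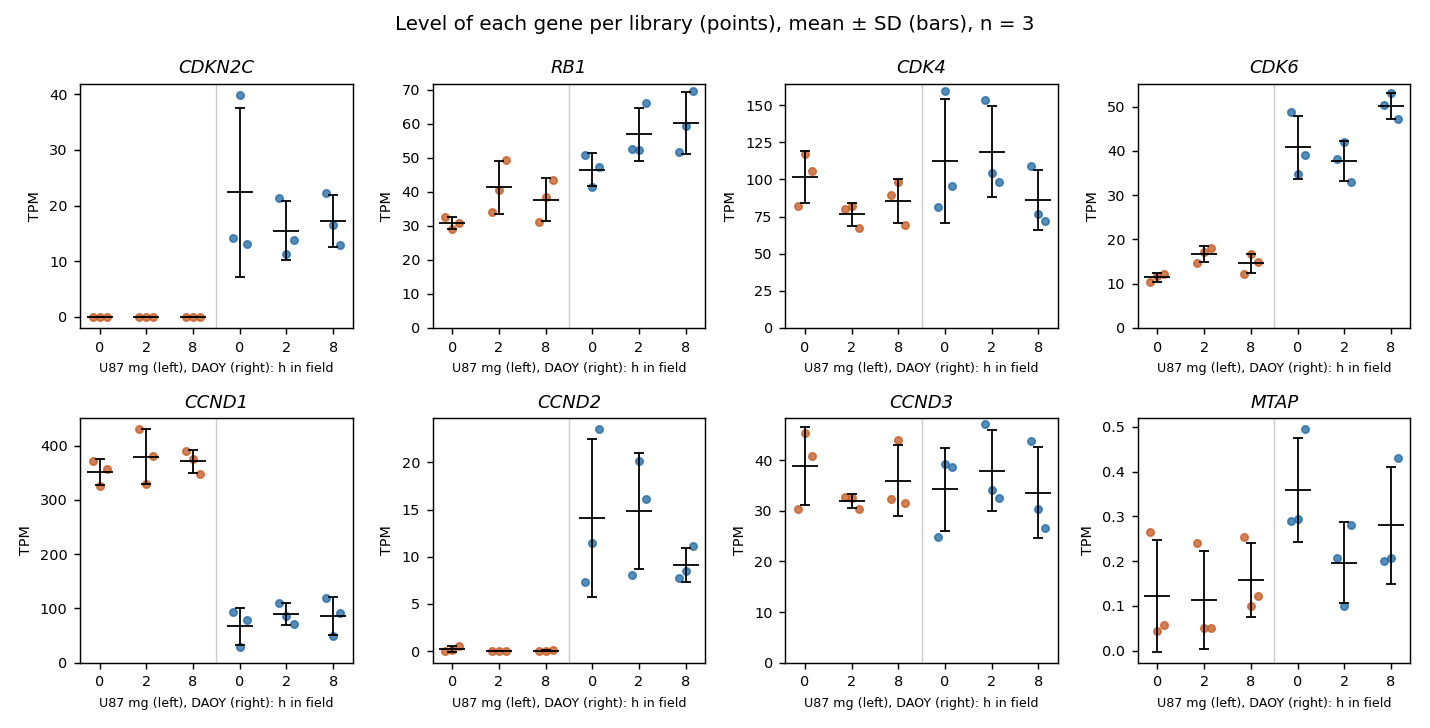
Level in TPM of each of the 8 genes in every library (points) with the mean and SD of each group (bars, n = 3), U87 mg in orange and DAOY in blue at 0, 2 and 8 h in the field. CDKN2C stays at 0 in U87 mg, CCND1 lies at or above 326 TPM in U87 mg and at or below 119 TPM in DAOY, and MTAP does not pass 0.494 TPM.

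Within U87 mg at 0 h, the order of mean levels per length was CCND1 (351.7 ± 23.7 TPM), CDK4 (101.6 ± 17.7), CCND3 (38.9 ± 7.71), RB1 (30.9 ± 1.75), CDK6 (11.5 ± 0.977), CCND2 (0.225 ± 0.279), MTAP (0.123 ± 0.124) and CDKN2C (0). Of these neighbours, CCND3 and RB1 overlapped, as did CCND2 and MTAP. The mean of CCND2 rests on replicate 2, with 0.546 TPM on 3 counts, against 0.0831 TPM on 4 counts in replicate 1. Its place above MTAP is therefore not secure. In DAOY at 0 h the order was CDK4 (112 ± 41.8 TPM), CCND1 (67.0 ± 34.5), RB1 (46.5 ± 4.82), CDK6 (40.9 ± 7.16), CCND3 (34.2 ± 8.204), CDKN2C (22.4 ± 15.2), CCND2 (14.1 ± 8.38) and MTAP (0.359 ± 0.117). There each gene down to CCND2 overlapped the next, and MTAP alone stood clear. In bulk RNA, fewer cells of a kind and less RNA per cell cannot be told apart.

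The genes around CDKN2C were compared because its RNA was at 0 in a whole line. Of 21 protein-coding genes annotated within 1.5 Mb, 18 were analysed here and 17 had at least 10 counts in a library. Going along the chromosome, 5 of these genes in a row were at or near 0 in U87 mg. AGBL4 had 0 to 3 counts in U87 mg and 5 to 11.1 in DAOY, and ELAVL4, a neuronal RNA-binding protein gene, had 0 in all 9 U87 mg libraries and 9 to 18 in DAOY. DMRTA2, a transcription factor gene, had 0 in U87 mg and 74 to 130 in DAOY. FAF1, an adaptor in ubiquitin-dependent degradation and the gene directly before CDKN2C, had 0 to 2 counts in U87 mg and 808 to 1235 in DAOY. For FAF1 the ratio of DAOY to U87 mg at 0 h was 1981, with an exact 95% counting interval from 548 to 16368 on 2 counts in U87 mg. DMRTA2 and ELAVL4 were at least 37.9-fold and 5.55-fold higher in DAOY against the floor of 3 counts in each library.

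On the far side of CDKN2C the counts returned. The long non-coding RNA LINC01562, 234.3 kb beyond it, was low in both lines, with 4.1 to 10.5 counts in U87 mg and 7.2 to 20.8 in DAOY. RNF11, a ubiquitin ligase gene that begins 275.5 kb beyond it, had 1674 to 2574 counts in U87 mg and 1932 to 2981 in DAOY. EPS15, OSBPL9, TXNDC12, KTI12, BTF3L4, ZFYVE9, CC2D1B, ORC1 and PRPF38A, further on, all had at least 86.9 counts in every library of both lines, and TTC39A had 14 to 36 counts in U87 mg and 2 to 10 in DAOY. RAB3B, a vesicle GTPase gene 947.2 kb beyond CDKN2C, was high in U87 mg (3857 to 7464 counts) and low in DAOY (44.4 to 191). Among the genes with at least 10 counts in a library, those at or near 0 in U87 mg thus followed each other without a break from AGBL4 to CDKN2C. DNA was not measured, and whether this stretch is present in these U87 mg cells was not tested.

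Around CDKN2A on chromosome 9, 25 protein-coding genes are annotated within 1.5 Mb, of which 6 were analysed here and 3 had at least 10 counts in a library, MTAP among them. FOCAD, a gene of focal adhesions, was at 0 in all 9 U87 mg libraries and had 72 to 103 counts in DAOY, at least 36.1-fold higher at 0 h. MLLT3, a transcription elongation factor gene, had at most 1 count in U87 mg and 98 to 180 in DAOY, at least 50.2-fold higher at 0 h. The others with values, HACD4, KLHL9 and IFNW1, had at most 3, 7 and 1 counts in U87 mg and at most 2.4, 6 and 1 in DAOY. Beyond CDKN2B, the long non-coding RNA LINC01239 was higher in U87 mg, with 13.6 to 36.0 counts against 3.0 to 14.2 in DAOY (log2 fold change of DAOY against U87 mg at 0 h -1.73, SE 0.52, edgeR adjusted p = 0.00859). So in DAOY the genes farthest before CDKN2A had reads, whereas from HACD4 to MTAP both lines stayed at or under 19.5 counts in every library.

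**Figure D3:**
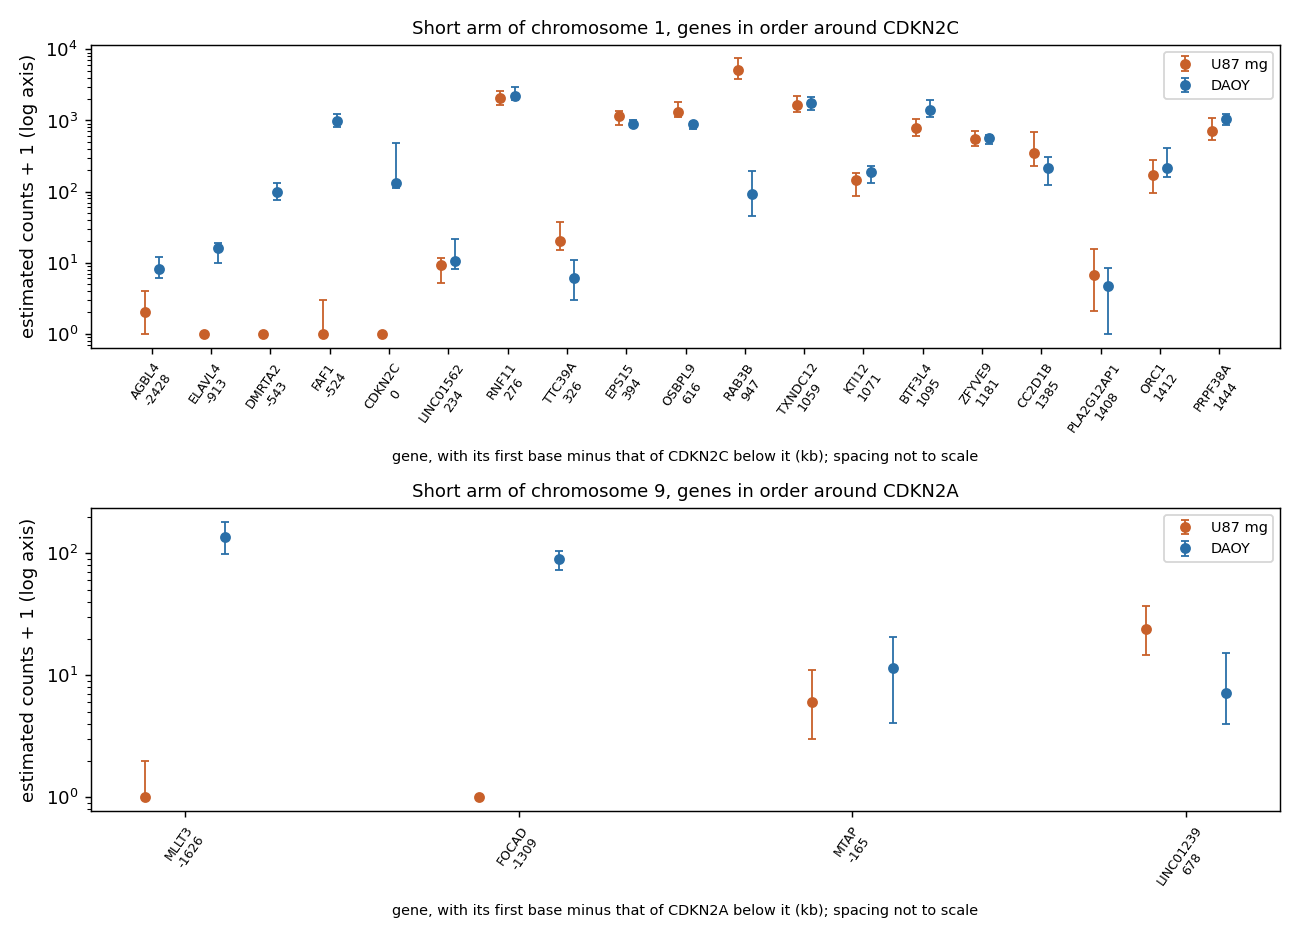
Estimated counts plus 1, on a log axis, of genes with at least 10 counts in a library, in chromosome order around CDKN2C (top) and CDKN2A (bottom). Points are medians and bars the range over 9 libraries of a line, and the number under each gene is its first base minus that of the named gene in kb. The U87 mg medians from AGBL4 to CDKN2C sit at or near 0 counts, and from RNF11 on both lines have reads.

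The other genes of the pathway were read from lists of known components, by the same calls at 0 h. Over all genes tested, 41.2% were called, 23.4% higher and 17.8% lower in DAOY. The counts of every list at 0 h stand beside these shares, and no list was tested as a set. Of the INK4 and CIP/KIP inhibitors, 5 of 7 were tested, with 2 higher in DAOY, 1 lower and 2 not called. CDKN2D, a further INK4 gene, went the other way from CDKN2C, with 16.3 ± 8.58 TPM in U87 mg and 5.56 ± 3.75 in DAOY (log2 fold change -1.65, SE 0.38, edgeR adjusted p = 0.00107). CDKN2C made up 80.0% ± 7.14 of the CDKN2C and CDKN2D sum in DAOY at 0 h and 0% in U87 mg. CDKN1C was the other gene higher in DAOY, on 5 and 20 counts summed over the 0 h libraries of U87 mg and DAOY, while CDKN1A (log2 fold change -0.76, edgeR adjusted p = 0.0335) and CDKN1B (0.15, 0.434) were not called. The median log2 fold change of the list was 0.15.

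Among 13 pocket proteins and E2F factors, 2 were higher in DAOY, 5 lower and 6 not called, with a median log2 fold change of -0.37, and DESeq2 called 3 higher and 4 lower. E2F3, an activating E2F, was at 34.8 ± 2.70 TPM in DAOY and 8.05 ± 0.312 in U87 mg (log2 fold change 2.07, SE 0.15, edgeR adjusted p = 2.25e-09), and E2F6, a repressor, was higher by 1.08. E2F1 went the other way, with 27.4 ± 9.06 TPM in U87 mg and 6.10 ± 3.17 in DAOY (-2.23, SE 0.41, edgeR adjusted p = 0.00014). RBL1, a pocket protein related to RB1, was lower in DAOY by a log2 fold change of -1.65. TFDP1 (-1.41), E2F7 (-1.25) and RBL2 (-1.02) were the other 3 lower. E2F6 and RBL2 fell under 2-fold, with adjusted p still below 0.05, without U87 mg replicate 2 at 0 h (0.93) and without U87 mg replicate 0 or DAOY replicate 2 at 0 h (-0.89 and -0.92). By level, U87 mg had 30.9 ± 1.75 TPM of RB1, 40.8 ± 4.37 of RBL1 and 51.1 ± 5.25 of RBL2, and DAOY had 46.5 ± 4.82, 13.8 ± 3.28 and 27.9 ± 1.95 (SD, n = 3).

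Of 18 E2F target genes, 2 were higher in DAOY (MCM7 by a log2 fold change of 1.14 and PCNA by 1.12, both parts of the replication machinery), 1 was lower (E2F1) and 15 were not called, with a median of -0.23. MCM7 had 79.1, 87.1 and 235.7 TPM in the DAOY libraries, and without DAOY replicate 1 at 0 h its log2 fold change was 0.53 (edgeR adjusted p = 0.216), and without U87 mg replicate 0 it was 0.94 (0.0705). PCNA was at 0.89, under 2-fold, without DAOY replicate 0 at 0 h. Of 8 genes for cyclins E and A, CDK2 and their partners, CCNA1 alone was called, at 5.41 ± 0.883 TPM in DAOY and 0.0214 ± 0.0370 in U87 mg. CDK2 itself was at a log2 fold change of -0.02 with an interval from -0.39 to 0.35. Of the 12 genes of the MuvB core and the DREAM complex, 3 were lower in DAOY (RBL1, RBL2 and TFDP1), 0 higher and 9 not called, and DESeq2 called 1 higher and 2 lower. Of the CDK-activating kinase (4 genes) and the HSP90 and CDC37 chaperone of CDK4 and CDK6 (3 genes), 0 were called by edgeR and 0 by DESeq2, and 1 gene of each, CDK7 and HSP90AB1, had an unadjusted p below 0.05. Of 12 genes for the turnover of D cyclins, CRYAB alone was called, lower in DAOY on 42 and 7 counts in U87 mg and DAOY (edgeR adjusted p = 0.0490), a call lost without any of 4 of the 6 libraries at 0 h (DAOY replicate 0 or 1, U87 mg replicate 1 or 2), and DESeq2 called 0.

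MTAP was read beside the pathways its product feeds. Of 10 genes of methionine salvage and polyamine synthesis, MTAP was the 1 higher in DAOY by edgeR, on the call near the threshold given above, and 3 were lower. These were SMS (327 ± 19.8 TPM in U87 mg and 84.4 ± 9.17 in DAOY, log2 fold change -2.04), SRM (-1.21) and ODC1 (-1.15), all of them polyamine enzymes. SRM fell under 2-fold without U87 mg replicate 1 at 0 h (-0.94), and ODC1 without U87 mg replicate 0 (-0.98). DESeq2 called the same 3 lower, but its 1 higher gene was MRI1 (log2 fold change 1.01, DESeq2 adjusted p = 0.000198) and not MTAP. Of the 5 genes of the PRMT5 complex, whose enzyme is inhibited by the methylthioadenosine that builds up without MTAP, 3 were higher in DAOY and 0 lower. RIOK1 had 67.0 ± 8.99 TPM in DAOY and 10.5 ± 4.14 in U87 mg (log2 fold change 2.85), CLNS1A differed by 1.59 and PRMT5 by 1.29 (SE 0.16, edgeR adjusted p = 2.68e-06). The list medians were -0.46 and 1.29, against 0.05 over all genes. Of all genes tested, 23.4% were called higher and 17.8% lower in DAOY, and a link of these lists to MTAP was not tested.

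The labelled lines were checked against markers. In U87 mg, VIM, CD44, TNC and CHI3L1 had medians from 96.8 to 4561 TPM, and NES had 7.62. GFAP was at 0.958, OLIG2 at 0.574 and S100B and SOX2 at 0, so these markers of the glioblastoma list were nearly absent. VIM, CD44 and TNC were also high in DAOY, at medians of 2133, 1150.0 and 347 TPM. In DAOY, NES had a median of 0.505 TPM, and SOX2, a marker of the glioblastoma list, had 5.13. In DAOY, SFRP1, PTCH1, HHIP, ZIC1 and ZIC2 had medians from 2.97 to 23.2 TPM, whereas GLI1, NEUROD1 and BARHL1 were at a median of 0. ZIC1, ZIC2 and PTCH1 were present in U87 mg too, at medians of 6.48, 4.75 and 2.44 TPM. GLI1 was higher in U87 mg (log2 fold change -2.32), and GLI2 had medians of 3.60 TPM in U87 mg and 1.05 in DAOY. Summed over 9 libraries each, 5 fibroblast markers, all 5 of them at or above a median of 1 TPM in both lines, ranged from 243 to 590.2 TPM in U87 mg and from 1295 to 1900.2 in DAOY. The sum of 4 epithelial markers ranged from 2.76 to 5.67 and from 93.9 to 269 TPM. In DAOY it was nearly all KRT18 (median 175.8 TPM) and KRT8 (28.2). EPCAM went the other way, at medians of 0.672 TPM in DAOY and 1.66 in U87 mg. CDH1 was near 0 in both lines (0.131 and 0.0988). The sum of 4 immune markers, nearly all CD68, ranged from 248 to 602 TPM in U87 mg and from 12.8 to 44.6 in DAOY. PTPRC and CD3E were at most at 0.663 TPM. The sum of 4 endothelial markers stayed under 13.4 TPM and that of 4 neuronal markers, from 27.1 to 66.2 TPM in U87 mg and from 15.0 to 29.8 in DAOY, was mostly TUBB3. The part of such programs in the differences above was not tested.

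The second question was whether the field changed these genes. None of them was called at 2 h or 8 h in either line. In U87 mg, 5 of the 8 passed the filter on low counts (CDKN2C, CCND2 and MTAP did not), and 0 were called by edgeR at 2 h, where 0% of all 14107 genes were called, and 0 at 8 h, where 0.638% were. In DAOY all 8 passed the filter, and 0 were called at 2 h (0% of 15372 genes) and 0 at 8 h (3.13%). DESeq2 also called 0 of them in each of these comparisons. At an unadjusted p below 0.05 the counts were 3 and 1 genes in U87 mg at 2 h and 8 h and 0 in DAOY at either time, where over all genes 8.78%, 15.9%, 2.73% and 22.8% had such a p.

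The 3 genes of U87 mg with an unadjusted p below 0.05 at 2 h were CDK6, CDK4 and RB1. CDK6 stood at 10.4, 11.8 and 12.3 TPM at 0 h, at 14.6, 17.2 and 18.1 at 2 h, and at 12.3, 16.6 and 15.0 at 8 h. The 2 h group lay wholly above the 0 h group. At 8 h the lowest library (12.2568 TPM) was only just above the highest at 0 h (12.2515 TPM). The log2 fold change of CDK6 was 0.45 at 2 h (95% interval from 0.16 to 0.73, edgeR adjusted p = 0.495) and 0.43 at 8 h (from 0.14 to 0.71, adjusted p = 0.132). CDK4 had 82.3, 117 and 105 TPM at 0 h, 80.2, 81.8 and 67.2 at 2 h, and 89.7, 98.1 and 69.4 at 8 h, with log2 fold changes of -0.33 (from -0.61 to -0.06, adjusted p = 0.495) and -0.12. Its 2 h libraries all lay below those at 0 h. RB1 had 32.6, 29.1 and 30.9 TPM at 0 h, 34.0, 40.6 and 49.3 at 2 h, all above the first group, and 31.0, 38.4 and 43.5 at 8 h, with log2 fold changes of 0.31 (from 0.02 to 0.60, adjusted p = 0.495) and 0.26. All of these intervals lie within a 2-fold change, and none held after adjustment. The share of all genes whose groups did not overlap was not computed.

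Because CDK6 and CDK4 lay on opposite sides of 0, their ratio in U87 mg was 8.83 ± 1.03 at 0 h, 4.65 ± 0.889 at 2 h and 5.95 ± 1.34 at 8 h (SD, n = 3). Neither later group overlapped the 0 h group. Each difference gave an exact two-sided permutation p of 0.1, the smallest possible, and an adjusted value of 0.3 over 15 tests of ratios and sums. In DAOY the ratio was 2.90 ± 1.51, 3.16 ± 0.782 and 1.71 ± 0.395, with overlap. A trend with transcript length was measured beside these values. The slope of log2 CPM (counts scaled to depth) on the log10 length of a gene's main transcript, over 11211 genes and centred for each line, was -0.07 ± 0.12 in U87 mg at 0 h, 0.10 ± 0.05 at 2 h and -0.03 ± 0.11 at 8 h (SD, n = 3), with the 0 h range overlapping those of both later groups. The main transcript of CDK6 has 11612 bases and that of RB1 4793, against 2076 for CDK4 and 1724 for CCND3. The part of this trend in the values of CDK6, RB1 and CDK4 was not tested.

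CCND1 in U87 mg had 372, 326 and 357 TPM at 0 h, 430.0, 329 and 380.2 at 2 h, and 389.8, 376 and 348 at 8 h, and all groups overlapped. Its log2 fold changes were 0.09 (from -0.21 to 0.40) and 0.15 (from -0.15 to 0.45). CCND3 was at -0.32 (from -0.68 to 0.03) at 2 h and -0.09 (from -0.44 to 0.27) at 8 h. For CDKN2C, all 6 U87 mg libraries in the field stayed at 0 counts.

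In DAOY the intervals were wider. CCND1 had 93.7, 28.0 and 79.2 TPM at 0 h, 111, 85.3 and 70.5 at 2 h, and 119, 49.4 and 90.7 at 8 h. Its log2 fold changes were 0.31 (from -0.64 to 1.25) and 0.35 (from -0.59 to 1.30). CDKN2C was at -0.50 (from -1.47 to 0.47) and -0.42 (from -1.39 to 0.54). Both rested on replicate 1 at 0 h. Without that library, CDKN2C was at 0.18 and 0.28, and CCND1 at -0.10 and -0.03. E2F target genes, 18 in number, were also highest in that library, at a sum of 2371 TPM against 2008 and 1171 in the others of its group, and the part of this in the values of CDKN2C was not tested.

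The kinases and CCND2 overlapped between the times in DAOY. CCND2 had 7.37, 11.5 and 23.5 TPM at 0 h, 8.11, 20.2 and 16.2 at 2 h, and 7.72, 8.45 and 11.2 at 8 h, with log2 fold changes of 0.08 (from -0.79 to 0.94) and -0.49 (from -1.36 to 0.38). CDK6 had 48.8, 34.8 and 39.1 TPM at 0 h, 38.3, 42.0 and 33.0 at 2 h, and 50.3, 53.0 and 47.2 at 8 h, with log2 fold changes of -0.20 and 0.32 (at 8 h from -0.12 to 0.77). CDK4 was at 0.10 and -0.29 (at 8 h from -0.71 to 0.13), and CCND3 at 0.08 and 0.01.

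RB1, and MTAP at 2 h, were the DAOY genes whose TPM at a later time did not overlap 0 h. The share of all genes that stood apart in this way was not computed, so no weight is put on it. RB1 had 50.9, 41.4 and 47.3 TPM at 0 h, 52.5, 52.1 and 66.0 at 2 h, and 51.6, 59.2 and 69.7 at 8 h, both later groups lying just above the first. In the test on counts its log2 fold changes were -0.04 (from -0.44 to 0.37) and 0.36 (from -0.04 to 0.77), and at 2 h limma on log2(TPM + 1) gave 0.28, so the sign at 2 h depended on the scale. MTAP had 0.290, 0.293 and 0.494 TPM at 0 h, 0.208, 0.1004 and 0.281 at 2 h, and 0.202, 0.208 and 0.431 at 8 h. Its log2 fold changes, on 3.1 to 19.5 counts a library, were -0.85 (from -1.98 to 0.27) and -0.01 (from -1.08 to 1.06). The length slope in DAOY was -0.03 ± 0.27 at 0 h, -0.11 ± 0.17 at 2 h and 0.14 ± 0.12 at 8 h. A change of 2-fold or more at 8 h lies outside the intervals of RB1, CDK4, CDK6 and CCND3. It lies inside those of CDKN2C, CCND1, CCND2 and MTAP, for which such a change was not excluded.

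**Figure D4:**
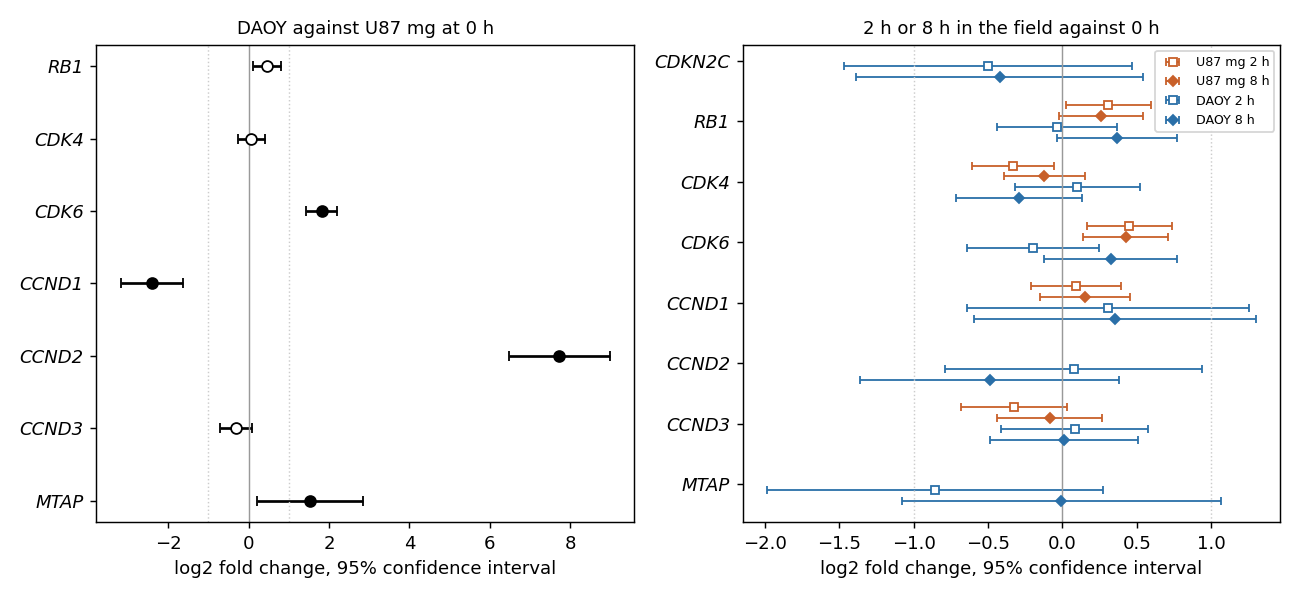
Log2 fold change with its 95% confidence interval from edgeR, left for DAOY against U87 mg at 0 h (filled circles passed the test, CDKN2C not drawn because U87 mg was at 0) and right for 2 h or 8 h against 0 h in each line (orange U87 mg, blue DAOY, open 2 h, filled 8 h). Dotted lines mark a 2-fold change. Only the left panel has genes past them that were called, from -2.40 for CCND1 to 7.73 for CCND2.

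The difference between the lines in the 8 h change was tested itself, in a fit of all 18 libraries. Of the 7 genes for which it could be estimated, 0 were called by edgeR, 0 by DESeq2 and 0 had an unadjusted p below 0.05, and 0.0121% of 16481 genes were called by edgeR at an adjusted p below 0.05. For CDKN2C it could not be estimated, since U87 mg was at 0. For CDK6 it was -0.10 (95% interval from -0.63 to 0.43), for CDK4 -0.16 (from -0.63 to 0.30), for RB1 0.11 (from -0.38 to 0.61), for CCND3 0.10 (from -0.47 to 0.67) and for CCND1 0.21 (from -0.83 to 1.24). Those of CCND2 and MTAP rest on few counts, with intervals over 3 log2 units wide.

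Downstream genes called at 8 h stand beside the shares of all genes called by edgeR, 0.638% in U87 mg and 3.13% in DAOY. CCNE2 is a cyclin E that acts after E2F factors are released. In U87 mg it went from 19.6 ± 3.33 TPM at 0 h to 8.15 ± 1.46 at 8 h (log2 fold change -1.26, SE 0.20, edgeR adjusted p = 0.0178). The call was lost without U87 mg replicate 2 at 0 h (adjusted p = 0.0630) or at 8 h (0.129). It was the only gene called of the 7 tested for cyclins E and A and CDK2, and of the 18 E2F target genes, whose median was -0.12. In DAOY, CCNE2 went from 26.99 ± 11.5 to 10.2 ± 5.78 TPM and was not called by edgeR (-1.42, adjusted p = 0.0738) but was by DESeq2 (adjusted p = 0.011), and its 8 h change did not differ between the lines by more than the error (difference -0.15, edgeR adjusted p = 0.992). CCNA1, a cyclin A best known from the germ line, rose in DAOY from 5.41 ± 0.883 to 19.3 ± 5.92 TPM (log2 fold change 1.93, SE 0.33, edgeR adjusted p = 0.0143), a call lost without DAOY replicate 1 or 2 at 8 h (adjusted p = 0.0679 and 0.0532). In the lists that hold neither CCNE2 nor CCNA1, edgeR and DESeq2 called 0 genes at 2 h or 8 h in either line, with from 0 to 4 genes of a list at an unadjusted p below 0.05. The E2F target genes of DAOY had a median of -0.40 at 8 h, with 0 called by edgeR, 1 by DESeq2 (CCNE2) and 2 of 18 at an unadjusted p below 0.05.

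Over the 18 libraries, with each line centred on its own mean, the genes most like a member were listed by the Pearson correlation of log2 CPM, as a description of points that share library, depth and RNA quality. ESPL1 (r = 0.91), TUBB (0.90) and TIMELESS (0.88), genes used in mitosis and DNA replication, were nearest to CDKN2C, for which 9 of the 18 points, those of U87 mg, are at 0 and the highest is DAOY replicate 1 at 0 h. CCDC82, CD46 and FER (0.93 to 0.95) were nearest to RB1, and KTN1, RTN4 and PANK3 (all 0.90) to CDK6. POLE4, POP7 and TMEM201 (0.87 to 0.88) were nearest to CCND3, and LPXN, TFPI2 and UBQLN2 (0.83 to 0.87) to CCND1. For CCND2 they were IL17RB, LINC00511 and AP001615 (0.74 to 0.78) and for MTAP ADIPOR1, CCNB1IP1 and NUDT5 (0.74 to 0.81). These values rest on few counts, with 0 to 4 a library for CCND2 in U87 mg. MTAP had 2.0 to 10.1 counts a library in U87 mg and 3.1 to 19.5 in DAOY.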

How the data were processed

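RNA was sequenced from 18 libraries, 3 for each cell line and time, made with a stranded poly(A) kit and described as biological replicates that were chosen by quality control. The authors aligned reads to GENCODE 24 transcripts with Kallisto 0.43.0 and deposited, for 145326 transcripts, estimated counts beside TPM values. The strand setting is not given in the sources used here. The 24 deposited columns of p-values, q-values and log2 fold changes hold 8 comparisons that the authors made with Sleuth 0.28.1, and were not used. The genes and lists described were chosen with earlier results of these data known.

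Transcripts were summed to 32548 genes by name and chromosome, and estimated counts were rounded. The test was edgeR 4.0.16 in R 4.3.3 (filterByExpr, TMM normalisation, quasi-likelihood test, Benjamini-Hochberg adjustment over all genes tested), checked on simulated counts. Far fewer genes were changed in the simulation than were called between the lines, so it cannot speak for the error rate of that comparison. The lines and the difference of 8 h changes were fitted on all 18 libraries and the times on the 9 of each line. Ratios and sums of TPM were compared by exact two-sided permutation tests. DESeq2 1.42.0 and limma 3.58.1, the latter on log2(TPM + 1) and log2(TPM + 0.1), were alternatives. A floor of 3 counts was used where a line was at 0, and floors and intervals on counts cover counting error only. Named genes were all members, list genes that were called, and the 3 genes most like each member (those of CDK4 are not reported here); neighbouring genes and list genes that were not called were named after their values were seen. Replicate numbers were not used to pair the libraries in the main fits. Coordinates are from GENCODE 29, whose release differs from that of the files on the same GRCh38 assembly.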

Additional observations from a re-analysis of the deposited data

How the results depend on the processing

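At 0 h, CDKN2C, CCND2, CDK6 and CCND1 were called under every alternative that tested them. Requiring at least 10 counts in every library left 2 genes called, since CDKN2C, CCND2 and MTAP do not reach that count in U87 mg. The other alternatives called from 4 to 6, and leaving out 1 library from 4 to 5. Without the fold threshold RB1 was called as well. With the replicate number as a block, 5 genes were called at 0 h and 0 in each other comparison. The numbers were not taken as pairs in the main fits. Of 21 correlations between libraries of one number, 10 were above 0.1 and the highest was 0.41. In all, 8 of 18 libraries were most like a library of their own number. These values do not settle whether libraries of one number share a batch.

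At 2 h and 8 h, 0 genes were called under every alternative run. The sign of values near 0 changed. RB1 in DAOY at 2 h was 0.28 and 0.29 by limma with a pseudocount of 1 and 0.1. MTAP in DAOY at 8 h was 0.0189 with DESeq2 size factors and 0.0179 by DESeq2. CCND3 in DAOY at 8 h was -0.0278 and -0.0284 by limma, -0.0222 with the block and -0.0114 in a fit of all 18 libraries. The difference of the 8 h changes of CCND2 was -0.213 by limma on log2(TPM + 1). The cause was not tested.

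With 1 library left out, the lines differed in CDK4 by -0.10 to 0.15. In U87 mg, CCND1 at 2 h ranged from -0.0217 to 0.20 and CCND3 at 8 h from -0.22 to 0.0547. In DAOY at 2 h the ranges were -0.86 to 0.18 for CDKN2C, -0.16 to 0.18 for RB1, -0.0948 to 0.25 for CDK4, -0.36 to 0.0803 for CDK6, -0.10 to 0.77 for CCND1, -0.21 to 0.64 for CCND2 and -0.14 to 0.17 for CCND3. At 8 h they were -0.69 to 0.28 for CDKN2C, -0.39 to 0.17 for MTAP, -0.0337 to 0.81 for CCND1, -0.73 to 0.0852 for CCND2 and -0.15 to 0.16 for CCND3. The difference of 8 h changes ranged from -1.22 to 0.16 for MTAP, -0.0101 to 0.35 for RB1, -0.26 to 0.19 for CDK6, -0.19 to 0.68 for CCND1 and -0.0636 to 0.26 for CCND3.

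Over all genes, the background counts depended on the processing. The lines differed in 6786 genes, or 3290 with at least 10 counts in every library. At 8 h, 90 genes were called in U87 mg (0 to 136 with 1 library left out, 233 with no filter, 8 and 2 by limma) and 481 in DAOY (31 to 402 with 1 library left out, 306 by limma on log2(TPM + 1)). At 2 h in U87 mg, 0 were called, with 0 to 71 when 1 library was left out, 57 under no filter and 3 by DESeq2. The difference of 8 h changes had 2 genes called by edgeR and 84 by DESeq2. Depth limits CCND2 in U87 mg and MTAP in both lines, which rest on under 20 counts a library.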

Other observations

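CDKN2B-AS1, the long non-coding RNA that runs beside CDKN2B on chromosome 9, had 0 to 9.5 estimated counts over the 9 U87 mg libraries and 0 to 9.2 over the 9 DAOY libraries, so it was at the limit of detection in both lines.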
